A study of Mus musculus with 6 samples.

Results

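The oestrogen receptor pathway was examined through 10 genes, taken by symbol from the 24015 genes counted in each library: the receptors Esr1 and Esr2, the coactivators Ncoa1, Ncoa2 and Ncoa3, the corepressors Ncor1 and Nrip1, and the oestrogen-responsive genes Greb1, Xbp1 and Siah2. All 10 passed the filter on low counts, as did 12729 genes in all. In GRCm38, Ncoa1, Esr2 and Greb1 lie on chromosome 12, Ncor1 and Xbp1 on 11, and Ncoa2, Ncoa3, Siah2, Esr1 and Nrip1 on 1, 2, 3, 10 and 16. The genes bear on the drug itself, because tamoxifen, a ligand of these receptors, was what switched the transgene on. RNA was sequenced from FACS-sorted leukaemia stem and progenitor cells of mice with fully developed MLL-AF9 acute myeloid leukaemia. The tamoxifen group (LSPCT) comprised 3 libraries from mice given tamoxifen, and the untreated group (LSPC) comprised 3 libraries from mice not given it. Both groups grew from lineage-negative, Kit-positive marrow progenitors of NIKERT2 mice. These mice carry a NIK transgene behind a loxP-flanked stop at the Rosa locus (Rosa-loxp-STOP-loxp-NIK) and a tamoxifen-dependent recombinase (Rosa-CreERT2). No tamoxifen-treated cells without the transgene were analysed here, so the drug, the recombinase and NIK cannot be told apart. The labels give no dose, timing, animal age or number of mice per library, and p-values therefore measure the spread between these libraries, which may be technical.

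Oestrogen receptors are nuclear transcription factors that change shape on binding a ligand. With oestradiol bound, they recruit the steroid receptor coactivators Ncoa1, Ncoa2 and Ncoa3. With tamoxifen bound, they can recruit corepressor complexes built on Ncor1 instead, and tamoxifen acts as an antagonist or a partial agonist depending on the tissue. Esr1 is the form best known from mouse haematopoietic stem and progenitor cells. CreERT2 itself carries a mutated ligand-binding domain of the human receptor; no row for the fusion was used here, and whether any of its reads were counted under Esr1 was not tested.

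Total counts were 19999071 to 22454753 in the tamoxifen libraries and 20410001 to 26773176 in the untreated libraries, so that 3 counts, the limit a count of 0 allows, stood for 0.111 to 0.150 CPM (counts per 1000000 counts of the TMM-scaled library; counting error only). Map3k14, the gene of NIK, was at 130, 191 and 160 CPM in the tamoxifen libraries, against 26.5, 24.2 and 28.8 CPM in the untreated libraries, a log2 fold change of 2.59 (SE 0.15, edgeR adjusted p = 4.35e-05); gene counts do not separate the transgene from the mouse gene. Over 9 markers of leukaemic progenitors, the summed level was 1884 to 2108 CPM with tamoxifen and 1437 to 1954 CPM untreated, with 0 higher and 1 lower. Kit was at 152.9 ± 35.9 CPM with tamoxifen and 128.6 ± 10.5 CPM untreated (SD, n = 3 each), and Flt3, the marker that fell, at 39.2 ± 6.60 and 89.8 ± 12.8 CPM (log2 -1.20, edgeR adjusted p = 0.00153). Tamoxifen replicate 1 stood apart from the other tamoxifen libraries. Summed over 8 macrophage markers, of which 7 rose, it held 846 CPM and the remaining tamoxifen libraries 591 and 614 CPM. The untreated libraries held 317 to 423 CPM. Cd68 was not called, at 97.5, 101 and 105 CPM with tamoxifen, below the 113, 117 and 121 CPM untreated. Cd68 and Csf1r (257, 318 and 299 CPM with tamoxifen) were lowest in tamoxifen replicate 1 among the tamoxifen libraries. Tamoxifen replicate 1 also had the highest sum over 7 T cell markers (1 of 5 tested higher), at 79.9 CPM. The remaining tamoxifen libraries were at 28.8 and 43.2 CPM, with 18.3 to 22.1 CPM untreated. Lck, the only one called, gave 54.5 CPM of the 79.9 CPM. Cd3e, Cd3d, Cd3g and Cd4 were also highest there, but were not called. Cd8a, too low to test, was lowest there among the tamoxifen libraries. Over 6 eosinophil markers (1 of 3 tested higher), the sum was again highest in tamoxifen replicate 1. It was 82.6 CPM, beside 8.68 and 7.92 CPM, with 7.59 to 13.3 CPM untreated. Prg2, not called, and Ccr3, called higher, gave 66.5 and 14.6 CPM of it. Il5ra was lowest there among the tamoxifen libraries, at 1.30 CPM beside 2.09 and 1.59 CPM. Epx had 3 reads with tamoxifen and 22 untreated, and Ear1 and Ear2 had 0 in that library. Summed dendritic cell markers were at 94.3 to 116.6 CPM with tamoxifen and 62.8 to 70.4 CPM untreated (6 markers, 1 of 5 tested higher). Over 8 endothelial and stromal markers, the summed level was 112.9 to 168.3 CPM with tamoxifen and 168.4 to 230.2 CPM untreated, and of 6 tested 3 rose and 1 fell. The collagen genes Col1a1 and Col1a2 rose by 1.75 and 1.80 on the log2 scale and Pdgfra by 3.28. Only Pecam1 fell, to 67.2 CPM with tamoxifen, against 143.3 CPM untreated. Cdh5 and Emcn did not exceed 1.05 CPM in any library and were not tested. Cdh5 was at 1.05, 0.371 and 0.133 CPM with tamoxifen and 0, 0 and 0.0371 CPM untreated. The part of these cells in the results below was not tested, and fewer cells of a type and less RNA per cell cannot be told apart in bulk RNA.

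Of the 10 genes, 2 fell with tamoxifen, Siah2 and Ncor1, and none rose (two-sided quasi-likelihood test in edgeR, at an adjusted p under 0.05). Over all genes tested, 8.24% fell and 8.96% rose, 17.2% in all, so the 20% called here lay near the background. At an unadjusted p under 0.05 there were 0 higher and 5 lower, where 16.0% of all genes were higher and 15.9% lower. DESeq2 called 0 higher and 4 lower, adding Ncoa1 and Ncoa3 (10.3% of all genes lower), and limma voom 0 higher and 3 lower, adding Ncoa1 (8.64%). For 5 of the 10, namely Esr1, Ncoa1, Ncoa3, Ncor1 and Siah2, every tamoxifen library lay below every untreated one, and none lay wholly above. Groups that did not overlap were seen in 37.7% of all genes, 19.6% lower and 18.1% higher. The median log2 fold change was -0.22 over the 10 genes and -0.0025 over all genes tested, with 7 of the 10 below 0, against 50.4% of all genes.

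The same pair, Siah2 and Ncor1, passed under RLE, upper quartile and no scaling factors, where 7.88%, 7.09% and 7.95% of all genes were lower, and under a stricter filter on low counts (8.14%). Without a filter Ncoa1 was added (5.88%). With the replicate number as a block Ncoa1 passed and Ncor1 did not (6.54%), and with a change above 1.5-fold required none of the 10 passed (1.78%). Leaving out tamoxifen replicate 1 gave 4 lower, namely Esr1, Ncoa1, Ncor1 and Siah2, with 12.3% of all genes lower. Leaving out tamoxifen replicate 2 gave none of the 10 (5.69% of all genes), and tamoxifen replicate 3 gave Ncoa1 and Siah2 (5.14%). Leaving out untreated replicate 1, 2 or 3 gave 0, 1 (Siah2) and 0 of the 10, where 3.37%, 4.43% and 4.79% of all genes were lower.

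**Figure D1:**
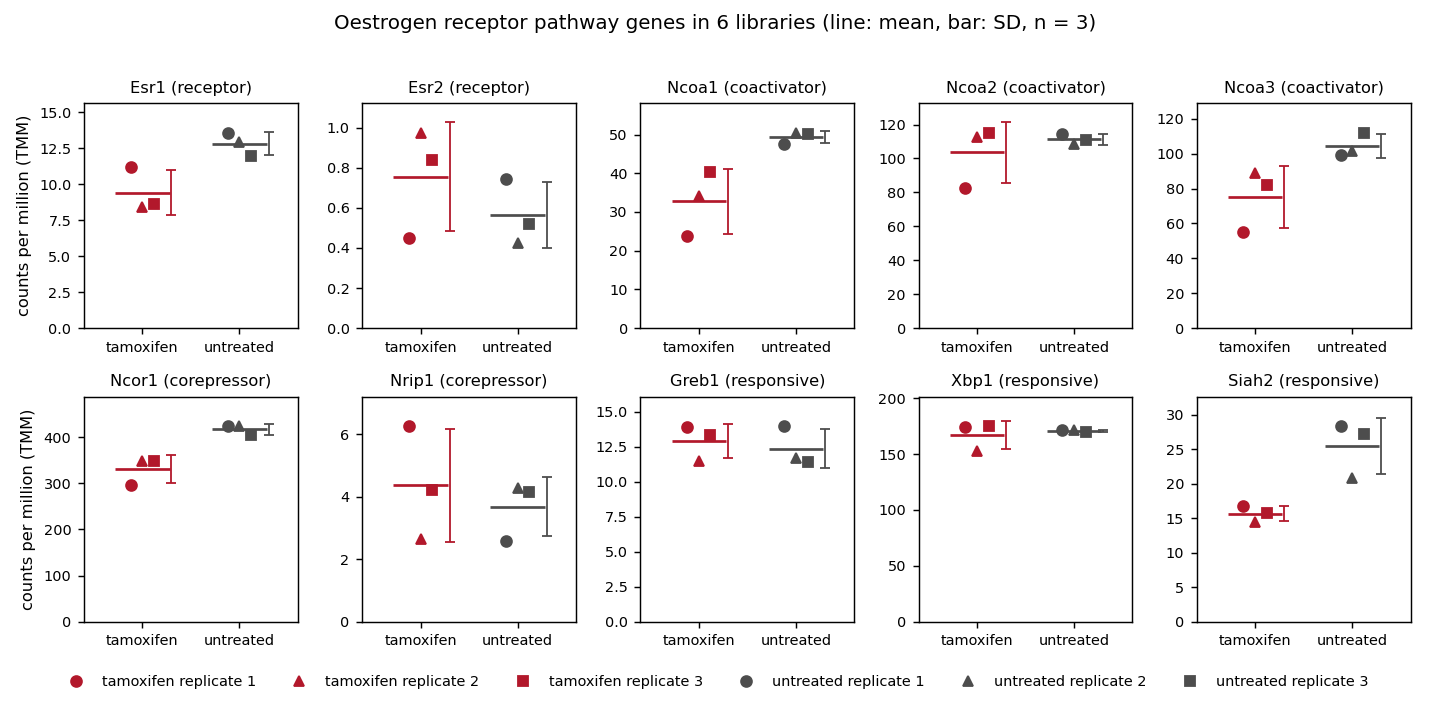
CPM (TMM-scaled, linear axis from 0) of each of the 10 genes, with the 3 tamoxifen libraries left in red and the 3 untreated libraries right in grey; lines are means and bars the SD (n = 3). In Siah2 all tamoxifen libraries (14.5 to 16.7) lie below all untreated ones (20.9 to 28.3), whereas those of Xbp1 and Greb1 overlap.

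The receptor genes were both expressed at low levels, and neither passed the test. Esr1, which encodes oestrogen receptor alpha, had 224, 181 and 194 reads in the tamoxifen libraries, or 11.2, 8.40 and 8.59 CPM, against 273, 305 and 322 reads, or 13.6, 12.9 and 12.0 CPM, in the untreated libraries. The groups did not overlap, with the highest tamoxifen value in replicate 1. The log2 fold change was -0.45 (SE 0.18, 95% interval -0.86 to -0.04 before adjustment, edgeR adjusted p = 0.123). Without tamoxifen replicate 1 it was -0.59 and passed (edgeR adjusted p = 0.0289); it passed under no other alternative. Esr2, the gene of oestrogen receptor beta, had only 9, 21 and 19 reads with tamoxifen and 15, 10 and 14 reads untreated, which is 0.450 to 0.975 CPM with tamoxifen and 0.424 to 0.746 CPM untreated. These groups overlapped, and the interval of its log2 difference, -0.65 to 1.52 around 0.43, spans a change in either direction (edgeR adjusted p = 0.583). Per kilobase of annotated exon (13661 bases for Esr1 and 3368 for Esr2, GENCODE M21), Esr1 averaged 0.688 CPM per kb with tamoxifen and 0.938 CPM per kb untreated, above the 0.224 and 0.167 CPM per kb of Esr2. The lowest library of Esr1, at 0.615, was above the highest of Esr2, at 0.289 CPM per kb. This order rests on an annotation that is not the one used for counting.

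Both windows of the Greb1 promoter, and a window each of Esr1 and Ncor1, are shown to set the oestrogen response element beside the expression values, for the best-known target gene, the main receptor and a gene that fell. Each window runs from 250 bases before to 50 after an annotated start (RefSeq, GRCm38.p6; for the counts the submitters' notes name mm9), 5′ to 3′ on the gene's strand. Capitals mark the 5-base arm of the element, GGTCA, or its reverse complement TGACC.
Greb1, chr12:16800837-16801136, minus strand: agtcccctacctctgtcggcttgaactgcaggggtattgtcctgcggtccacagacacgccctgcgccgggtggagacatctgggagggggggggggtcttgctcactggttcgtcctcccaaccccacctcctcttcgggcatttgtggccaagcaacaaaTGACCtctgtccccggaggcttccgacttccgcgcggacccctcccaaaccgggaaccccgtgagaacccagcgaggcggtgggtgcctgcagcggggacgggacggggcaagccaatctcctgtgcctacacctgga
Greb1, chr12:16757190-16757489, minus strand: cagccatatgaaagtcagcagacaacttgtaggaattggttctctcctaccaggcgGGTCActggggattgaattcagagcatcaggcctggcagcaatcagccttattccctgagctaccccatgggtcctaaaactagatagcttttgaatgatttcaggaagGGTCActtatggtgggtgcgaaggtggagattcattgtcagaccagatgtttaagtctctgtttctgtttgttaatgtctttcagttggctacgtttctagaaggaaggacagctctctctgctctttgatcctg
Esr1, chr10:4611739-4612038, plus strand: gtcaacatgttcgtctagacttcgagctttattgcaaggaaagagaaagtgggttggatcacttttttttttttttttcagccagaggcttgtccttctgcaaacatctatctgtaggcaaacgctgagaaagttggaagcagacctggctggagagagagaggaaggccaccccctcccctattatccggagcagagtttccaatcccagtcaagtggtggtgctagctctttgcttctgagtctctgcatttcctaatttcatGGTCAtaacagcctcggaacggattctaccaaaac
Ncor1, chr11:62457283-62457582, minus strand: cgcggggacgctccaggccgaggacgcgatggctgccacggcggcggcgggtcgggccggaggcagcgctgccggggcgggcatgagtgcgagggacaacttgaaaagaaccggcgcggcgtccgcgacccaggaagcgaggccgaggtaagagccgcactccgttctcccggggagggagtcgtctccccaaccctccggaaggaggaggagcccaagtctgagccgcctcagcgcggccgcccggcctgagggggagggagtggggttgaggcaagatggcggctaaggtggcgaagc

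The RefSeq table held 11 windows for 7 of the 10 genes; Siah2, Ncoa2 and Ncoa3 had none. The arm was present in 5 of the 11, namely both of Greb1 and a window each of Esr1, Esr2 and Nrip1. This is 45.5%, against 38.5% of the 12248 windows of tested genes and 40.5% of all 32851 promoter windows. The whole palindrome, GGTCANNNTGACC, was in none of the 11, in 0 windows of tested genes and in 0.07% of all windows. Each whole palindrome also contains the arm on both strands. A match of letters is not a binding site, and the element also acts from farther away. Of the 7 genes with windows, the 4 with the arm (Esr1, Esr2, Greb1 and Nrip1) did not pass the test; of the 3 without it, Ncor1 passed and Xbp1 and Ncoa1 did not.

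Among the coactivators, Ncoa1 and Ncoa3 were lower in every tamoxifen library without passing, and Ncoa2 was not. Ncoa1, the first steroid receptor coactivator described, was at 23.8, 34.2 and 40.3 CPM with tamoxifen and at 47.7, 50.5 and 50.05 CPM untreated. The groups were separate, but the tamoxifen libraries spread widely (32.8 ± 8.36 CPM, against 49.4 ± 1.51 CPM untreated; SD, n = 3), and replicate 1 was lowest. Its log2 fold change of -0.59 (SE 0.17) just missed the threshold (edgeR adjusted p = 0.0509). It passed without tamoxifen replicate 1 (log2 -0.40, adjusted p = 0.0187), without tamoxifen replicate 3 (-0.76, 0.0282), with DESeq2 (0.0101) and with limma voom (0.0401). Ncoa3, often amplified in breast cancer, was at 55.1, 88.7 and 81.8 CPM with tamoxifen, against 99.2, 101.7 and 112 CPM untreated. Tamoxifen replicate 1 was again the lowest (log2 -0.47, SE 0.17, edgeR adjusted p = 0.0928; DESeq2 adjusted p = 0.0307), and without it the log2 difference was -0.29 (edgeR adjusted p = 0.0530). Leaving out any other library gave an edgeR adjusted p of 0.0663 to 0.216. Ncoa2, whose product also serves the glucocorticoid receptor, was at 82.9, 112.7 and 115.2 CPM with tamoxifen and at 114.6, 108.3 and 110.9 CPM untreated. Apart from replicate 1 these values lay together (log2 -0.10, 95% interval -0.40 to 0.20, edgeR adjusted p = 0.639), and without that library the sign turned (log2 0.04). Of the reads of these 3 genes, Ncoa2 held 51.2%, 47.8% and 48.5% in the tamoxifen libraries and 43.8%, 41.6% and 40.6% in the untreated libraries. The difference in means was 7.18 percentage points, and the groups did not overlap, tamoxifen replicate 1 included (exact permutation test, two-sided, p = 0.1, the smallest that 3 against 3 allows). This share was chosen after the values of the 3 genes were seen, so the test adds no separate support.

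Ncor1, the scaffold of a corepressor complex with the deacetylase Hdac3, fell with tamoxifen. It was at 295.2, 347.2 and 348.9 CPM in the tamoxifen libraries, against 423, 423 and 404 CPM in the untreated libraries. Every tamoxifen library was below every untreated one, with replicate 1 lowest. The fall was modest, a log2 fold change of -0.33 (SE 0.09, 0.793-fold, edgeR adjusted p = 0.0374), and rested on 21270 reads with tamoxifen and 29361 untreated. The value without tamoxifen replicate 1 was -0.25 and passed (edgeR adjusted p = 0.0381). The call was lost without tamoxifen replicate 2 (adjusted p = 0.0607) or 3 (0.0603) or untreated replicate 1 (0.144), 2 (0.115) or 3 (0.0755), while the log2 value stayed between -0.37 and -0.25. On the opposite strand, exons of Pigl and Ttc19 overlap 0.640% and 0.0078% of those of Ncor1 in GENCODE M21, and the strand setting of the counts is not given. The same holds of Sulf2 for 1.95% of Ncoa3 exons, 4921501I09Rik for 0.793% of Ncoa1 exons and Gm48140 for 7.68% of Greb1 exons. Nrip1, a corepressor that is itself induced by oestrogen in breast cancer cells, was low and scattered, at 6.25, 2.65 and 4.20 CPM with tamoxifen and 2.59, 4.28 and 4.16 CPM untreated. The groups overlapped, with the highest value in tamoxifen replicate 1. Its log2 difference of 0.24 (95% interval -0.60 to 1.09, edgeR adjusted p = 0.699) turned to -0.10 without tamoxifen replicate 1.

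Siah2 was the gene of the 10 with the smallest p. It encodes a ubiquitin ligase that is induced by oestrogen in breast cancer cells and is known to target the Ncor1 protein for degradation. Its level was 16.7, 14.5 and 15.7 CPM in the tamoxifen libraries (335, 312 and 355 reads), against 28.3, 20.9 and 27.2 CPM in the untreated libraries (569, 492 and 732 reads). The tamoxifen libraries lay close together and wholly below the untreated ones, of which replicate 2 was lowest. The log2 fold change was -0.70 (SE 0.15, 0.615-fold, 95% interval -1.04 to -0.36, edgeR adjusted p = 0.0155), rank 1212 by p among 12729 genes. It missed the threshold without tamoxifen replicate 2 (edgeR adjusted p = 0.0528), untreated replicate 1 (0.0830) or untreated replicate 3 (0.0562), with log2 values of -0.65, -0.62 and -0.64, and stood at the threshold without tamoxifen replicate 3 (-0.69, 0.04998). The paralogues Siah1a (7.66 ± 0.694 CPM with tamoxifen and 8.71 ± 1.45 CPM untreated) and Siah1b (5.08 ± 1.36 and 5.33 ± 0.290 CPM; SD, n = 3 each) did not pass (edgeR adjusted p = 0.568 and 0.882).

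Greb1 and Xbp1, the other responsive genes, differed little. Greb1, an early oestrogen target in breast cancer cells whose product binds the receptor, was at 13.9, 11.5 and 13.4 CPM with tamoxifen and at 14.0, 11.7 and 11.4 CPM untreated. In both groups the values covered nearly the same range, with a log2 difference of 0.06 (SE 0.16, 95% interval -0.31 to 0.44, edgeR adjusted p = 0.824). Changes within that interval cannot be told from none at this precision. Xbp1, which encodes a transcription factor of the unfolded protein response and is raised by oestrogen in breast cancer cells, was at 174, 153 and 175 CPM with tamoxifen and at 171, 172 and 169.9 CPM untreated. Tamoxifen replicate 2 stood below the narrow untreated range, and tamoxifen replicates 1 and 3 stood slightly above it. The log2 difference was -0.03 (SE 0.08, 95% interval -0.23 to 0.16, edgeR adjusted p = 0.842), the tightest interval of the 10, and its sign turned without tamoxifen replicate 2 (0.03) and with upper quartile factors (0.0036). Counts per gene do not separate the spliced from the unspliced Xbp1 transcript.

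**Figure D2:**
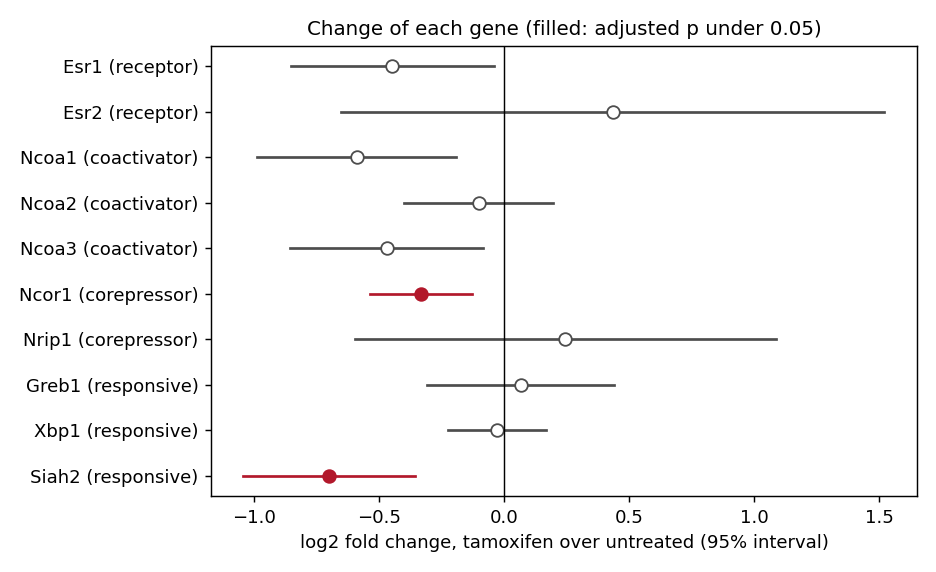
Log2 fold change, tamoxifen over untreated, of the 10 genes with 95% intervals (edgeR, unadjusted); filled red points passed at an adjusted p under 0.05. Siah2 (-0.70) and Ncor1 (-0.33) are filled, the interval of Xbp1 is the narrowest and that of Esr2, with 49 and 39 reads per group, the widest.

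The genes around the receptors were described through 9 lists with 100 tested genes in all. Of these, 5 rose and 15 fell, 20%, against 17.2% of all genes. By direction, 8.96% of all genes rose and 8.24% fell. The counts and median log2 fold changes of the lists are descriptions. Of 8 related receptors, 5 were too low to test, and of the other 3 there were 0 higher and 0 lower with edgeR, DESeq2, limma voom or at an unadjusted p under 0.05. Among these, the oestrogen-related receptor gene Esrra was at 48.4 ± 1.82 CPM with tamoxifen and 49.3 ± 3.50 CPM untreated, and the membrane oestrogen receptor gene Gper1 at 0.565 ± 0.365 and 0.878 ± 0.231 CPM (SD, n = 3 each). Pgr, the progesterone receptor and a classical target, was at 0.167 ± 0.164 CPM with tamoxifen and 0.171 ± 0.148 CPM untreated, near the limit that a count of 0 allows, and was not tested. Of the pioneer factors that open chromatin for the receptor in breast cells, 2 of 4 were tested and none passed with edgeR, DESeq2 or limma voom. At an unadjusted p under 0.05, where 16.0% of all genes were higher, both were higher. Of these, Gata3 stood at 13.2, 2.37 and 4.65 CPM in the tamoxifen libraries, replicate 1 highest, against 2.09, 2.50 and 3.30 CPM untreated. Foxa1 had 1 read in all 6 libraries together.

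Of 26 other coregulators, 2 rose and 4 fell (median log2 -0.06). Trim24, a ligand-dependent receptor coregulator and chromatin reader, rose to 43.5 ± 5.31 CPM with tamoxifen, against 22.4 ± 1.40 CPM untreated (SD, n = 3; log2 0.96, SE 0.12, edgeR adjusted p = 0.00134). Carm1, an arginine methyltransferase that works with the Ncoa proteins, fell to 40.3 ± 1.27 CPM with tamoxifen, against 63.0 ± 2.53 CPM untreated (SD, n = 3; log2 -0.64, SE 0.08, edgeR adjusted p = 0.00137). Both calls held without each library in turn. On the log2 scale the acetyltransferase gene Kat2b fell by 0.50 (edgeR adjusted p = 0.0145), and Ctbp1 and Ctbp2, corepressors that bind Nrip1, fell by 0.37 (0.0187) and 0.38 (0.0135). Kat2b missed the threshold without untreated replicate 1 (edgeR adjusted p = 0.0563) or 3 (0.0604), and Ctbp2 without untreated replicate 1 (0.0661) or 2 (0.0606). Ctbp1 missed it without tamoxifen replicate 3 (0.0571) or untreated replicate 1 (0.101), 2 (0.0528) or 3 (0.0546), or with the replicate block (0.0503). Ncoa4, now best known as the receptor for ferritin turnover, rose by 0.29 (edgeR adjusted p = 0.0365) and passed in 1 of the 6 fits that left out a library, the one without tamoxifen replicate 1 (0.0214); in the others adjusted p was 0.0597 without tamoxifen replicate 2, 0.0896 without 3, and 0.133, 0.143 and 0.0774 without untreated replicates 1, 2 and 3. It also missed without the filter on low counts (0.0539) and with the replicate block (0.0691). Hdac3 stood at 68.8 ± 3.19 CPM with tamoxifen and 67.7 ± 4.42 CPM untreated (SD, n = 3; edgeR adjusted p = 0.884).

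Among 11 chaperones of steroid receptors, 1 rose and 1 fell (median log2 -0.11). Fkbp5, a co-chaperone known as a target of glucocorticoid and other steroid receptors, was at 185, 316 and 331 CPM in the tamoxifen libraries, against 149, 157 and 146 CPM in the untreated libraries (log2 0.88, SE 0.20, edgeR adjusted p = 0.0199). Tamoxifen replicate 1 lay nearest to the untreated libraries. Without that replicate Fkbp5 rose by 1.11 (edgeR adjusted p = 5.32e-05), and it missed the threshold without tamoxifen replicate 2 (0.0679) or 3 (0.0668) or untreated replicate 1 (0.0784), 2 (0.0608) or 3 (0.0538). Its partner gene Fkbp4 fell by 0.39 (edgeR adjusted p = 0.0337), and of the fits without 1 library only the one without tamoxifen replicate 1 passed (0.00621); the others gave 0.0979 and 0.110 without tamoxifen replicates 2 and 3, and 0.150, 0.102 and 0.0519 without untreated replicates 1 to 3. With upper quartile factors it was 0.0562. The glucocorticoid receptor gene Nr3c1 was at 92.7 ± 16.1 CPM with tamoxifen and 84.3 ± 7.15 CPM untreated (SD, n = 3; edgeR adjusted p = 0.538).

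Further genes that oestrogen raises in breast or uterine cells gave 1 of 18 higher and 3 lower, with 10 of the 28 on the list too low to test (median log2 -0.21). Stc2, a secreted glycoprotein gene, had 2 reads in each tamoxifen library and was at 1.84, 6.32 and 2.26 CPM in the untreated libraries (log2 -5.13, SE 0.68, edgeR adjusted p = 0.00185). Untreated replicate 2 was highest, and without it the log2 value was -4.38. Bcl2, the anti-apoptotic gene, fell to 25.2 CPM, against 82.7 CPM untreated (log2 -1.72, SE 0.15, edgeR adjusted p = 0.000308). Both calls held without each library in turn. Celsr2, a cadherin gene, fell by 1.20 (edgeR adjusted p = 0.0303) from a low level, 1.71 ± 0.141 CPM with tamoxifen and 3.94 ± 0.992 CPM untreated (SD, n = 3). It missed the threshold without tamoxifen replicate 2 (0.0672) or 3 (0.0799) or untreated replicate 1 (0.108) or 2 (0.125), and with the replicate block (0.0659). Ctsd, the gene of the lysosomal protease cathepsin D, rose by 0.47 (edgeR adjusted p = 0.0337). Its level was 615, 476 and 460 CPM in the tamoxifen libraries, replicate 1 highest, against 390, 347 and 384 CPM in the untreated libraries. With that highest library left out, Ctsd still passed, at an edgeR adjusted p of 0.0199 and a log2 value of 0.33. It missed the threshold without tamoxifen replicate 2 (0.0504) or untreated replicate 1 (0.0981), 2 (0.122) or 3 (0.0702). The cell cycle targets Myc (log2 0.16, edgeR adjusted p = 0.372) and Ccnd1 (log2 0.57, edgeR adjusted p = 0.157) did not pass. Fos, an immediate early gene, was at 213, 8.54 and 10.05 CPM in the tamoxifen libraries, against 299.8, 296 and 106 CPM in the untreated libraries. Tamoxifen replicate 1 lay within the untreated range and the other two tamoxifen libraries far below it (edgeR adjusted p = 0.367).

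Of the proteins that bind tamoxifen outside the receptor, Ebp and Dhcr7, sterol enzymes that form the antioestrogen-binding site, were at 39.6 ± 2.55 and 30.3 ± 5.39 CPM with tamoxifen and at 44.9 ± 3.17 and 33.8 ± 2.73 CPM untreated, and did not pass (SD, n = 3; edgeR adjusted p = 0.230 and 0.504). Of the genes of oestrogen and drug metabolism, 8 of 16 were tested, with 1 higher and 1 lower (median log2 -0.01). Hsd17b1, whose product turns oestrone into oestradiol, fell to 2.14 ± 0.259 CPM with tamoxifen, against 8.03 ± 0.761 CPM untreated (SD, n = 3; log2 -1.90, SE 0.23, edgeR adjusted p = 0.00124). The Hsd17b1 call held without each library in turn. Hsd17b12, an enzyme gene of fatty acid elongation, rose by 0.38 (edgeR adjusted p = 0.0475) and passed only without tamoxifen replicate 1 (0.0125) among the fits that left out 1 library; the others gave 0.106 and 0.112 without tamoxifen replicates 2 and 3, and 0.149, 0.165 and 0.0570 without untreated replicates 1 to 3. It also missed without the filter on low counts (0.0506) and with the replicate block (0.0553).

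**Figure D3:**
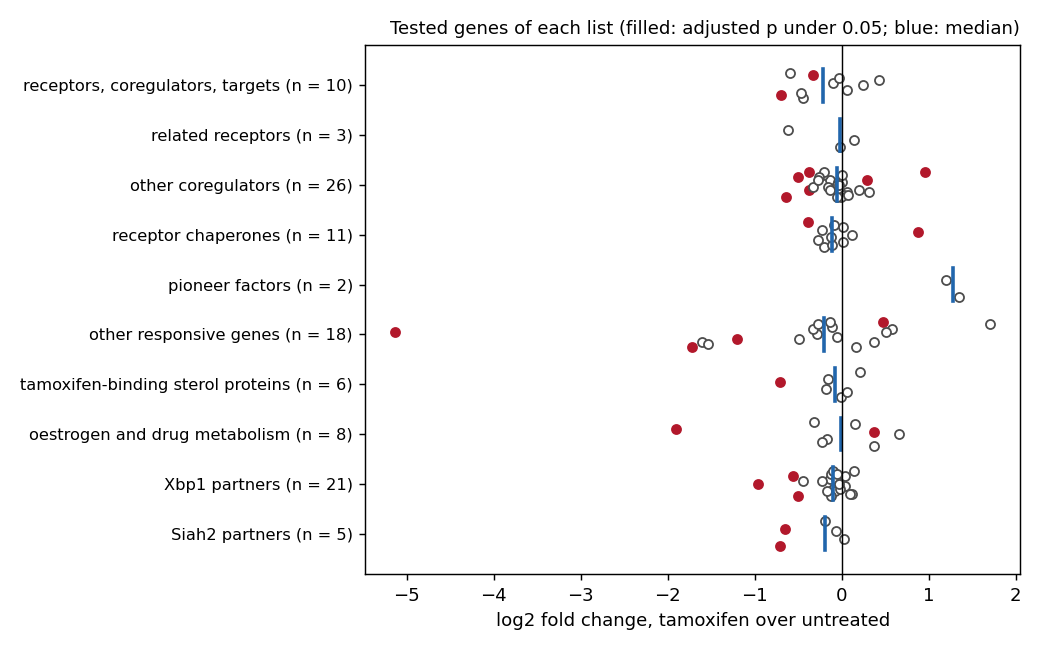
Log2 fold change, tamoxifen over untreated, of the tested genes of each list; each point is a gene, filled red at an edgeR adjusted p under 0.05, and the blue line is the median of the list. Most points lie near 0; Stc2 (-5.13), Hsd17b1 (-1.90) and Trim24 (0.96) are among the filled points farthest from it.

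The partners of Xbp1 and Siah2 completed the lists. Over all genes tested, 8.24% were lower with edgeR, 10.3% with DESeq2, 8.64% with limma voom and 15.9% at an unadjusted p under 0.05. Higher were 8.96% with edgeR and 16.0% at an unadjusted p under 0.05. Of 21 genes of the unfolded protein response and endoplasmic reticulum quality control around Xbp1, 3 fell and none rose, also with DESeq2 and limma voom (3 lower each; unadjusted p under 0.05, 4 lower and 0 higher), with a median log2 of -0.10. Ern1, which encodes the kinase and nuclease IRE1 alpha that splices Xbp1 RNA, fell to 36.9, 47.4 and 43.1 CPM in the tamoxifen libraries, against 79.9, 89.6 and 78.9 CPM in the untreated libraries (log2 -0.96, SE 0.11, edgeR adjusted p = 0.00112). Syvn1, a ubiquitin ligase for misfolded proteins, fell by 0.56 (edgeR adjusted p = 0.00953); both held without each library in turn. Atf6, the sensor of a parallel branch, fell by 0.50 (0.0175) and missed the threshold without tamoxifen replicate 2 (0.0611) or untreated replicate 1 (0.0563) or 2 (0.0679). Among 5 tested Siah2 paralogues and partners, 2 fell and none rose (DESeq2 2 lower, limma voom 1; unadjusted p under 0.05, 2 lower and 0 higher; median log2 -0.19). Both encode oxygen-sensing prolyl hydroxylases, a family with known substrates of Siah ligases. Egln1 fell to 41.4 ± 4.96 CPM with tamoxifen, against 67.9 ± 1.32 CPM untreated (SD, n = 3; log2 -0.71, SE 0.10, edgeR adjusted p = 0.00270), in all fits that left out 1 library. Egln3 fell by 0.66 (edgeR adjusted p = 0.0464) and missed the threshold without tamoxifen replicate 2 (0.121) or 3 (0.144) or untreated replicate 1 (0.134) or 2 (0.130), and with limma voom (0.0640), upper quartile factors (0.0608) and the stricter filter (0.0530).

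**Figure D4:**
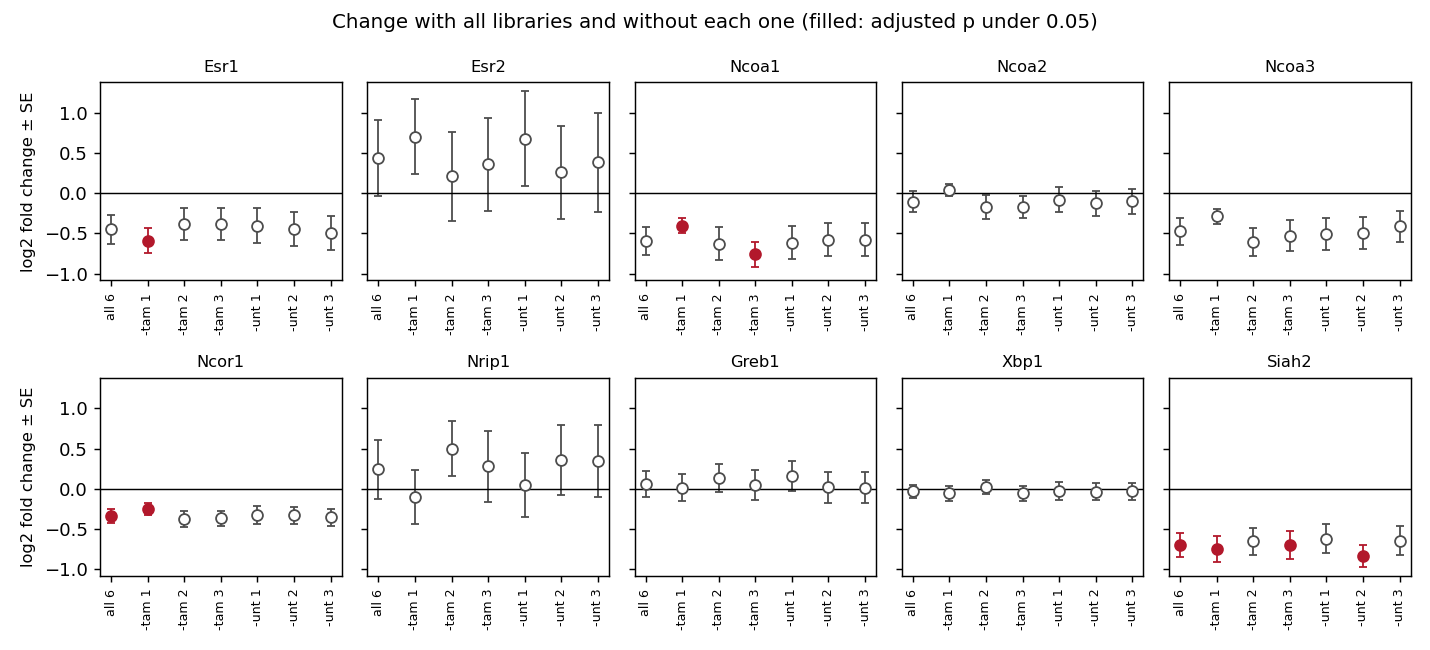
Log2 fold change (tamoxifen over untreated) with its standard error for the 10 genes, with all 6 libraries and without each tamoxifen (tam) or untreated (unt) library; filled red points passed at an adjusted p under 0.05. Siah2 passes in 3 of the 6 fits without a library (-0.83 to -0.62 over all 6), Ncoa1 in 2, Ncor1 in 1 and Esr1 in 1. Ncoa2 and Nrip1 change sign without tamoxifen replicate 1, and Xbp1 without tamoxifen replicate 2.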

How the data were processed

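RNA from 6 libraries was compared, 3 with tamoxifen and 3 untreated by their sample titles. The authors deposited raw counts, whole numbers for each gene symbol and not normalized. The submitters' processing notes name TopHat2 2.1.0, featureCounts, DESeq2, FastQC and build mm9, in no stated role. Annotation, strand setting and the handling of reads with several positions are not stated; counting without strand would merge a gene with overlapping opposite-strand exons.

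Libraries were scaled by TMM (factors 0.986 to 1.01) in edgeR 4.0.16 under R 4.3.3. The filterByExpr minimum was 10 counts, which kept 12729 of 24015 genes. Groups were compared with glmQLFit and glmQLFTest, two-sided, with group as the only term, and p-values were adjusted by Benjamini-Hochberg over all genes tested (threshold 0.05). An SE is the size of the log2 fold change divided by the root of the F statistic. The test was also run on simulated counts, and the outcome is not reported here. No pair of libraries within a group was a duplicate (chi-square over its degrees of freedom, 11.3 to 47.4).

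The 10 genes and the lists were chosen with earlier results of these data known. Genes named from a list are its passing members with the smallest p, up to 4 in each direction; other list genes named were chosen after their values were seen. Some list members are not reported here; the counts include them where they were tested. Exon lengths and overlaps came from GENCODE M21 and promoters from RefSeq, both on GRCm38; protein sequences were not used here. Alternatives were DESeq2 1.42.0, limma voom (limma 3.58.1), glmTreat with a fold of 1.5, a block for the replicate number, other scaling (RLE, upper quartile or none), another filter (none, or CPM of 1 in 3 libraries), and each library left out.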

Additional observations from a re-analysis of the deposited data

How the results depend on the processing

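Of 15 alternatives, the count of the 10 genes that passed as lower (2) was 4 with DESeq2, 3 without the filter and with limma voom, and 0 where glmTreat required over 1.5-fold, and 0 to 4 without each library; none passed as higher in any. With glmTreat, 420 genes rose and 227 fell over all genes, and 1 and 4 on the lists; Ncor1 (log2 -0.33) and Siah2 (-0.70) did not pass. Leaving out each library, 586 to 1657 genes rose and 443 to 1592 fell, and on the lists 1 to 7 rose and 8 to 25 fell. The log2 values over these fits were -0.59 to -0.38 for Esr1, -0.76 to -0.40 for Ncoa1, -0.18 to 0.0395 for Ncoa2, -0.37 to -0.25 for Ncor1, -0.10 to 0.50 for Nrip1, -0.0552 to 0.0272 for Xbp1 and -0.83 to -0.62 for Siah2. Ncoa1 passed without the filter (-0.60), with DESeq2 (-0.58) and with limma voom (-0.62), and Ncoa3 with DESeq2 (-0.46). Xbp1 was at 0.0036 with upper quartile factors. Greb1 and Esr2 kept their direction and did not pass in any; Esr2 was too low for the stricter filter. The cause of these shifts was not tested.

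Same-numbered libraries deviated together with correlations of 0.118, -0.115 and 0.106, so the numbers are not taken to pair them, and not every library correlated best with its own number. With the replicate block, Ncoa1 passed (-0.62, adjusted p = 0.0339), Ncor1 did not (-0.34, edgeR adjusted p = 0.0680), Siah2 did (edgeR adjusted p = 0.0206), 959 genes rose and 833 fell, and 3 list genes rose. Depth limits Esr2 most, with 9 to 21 reads per library.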

Other observations

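The genes whose pattern over the 6 libraries was most like that of Siah2, out of 12728 compared, were 2510002D24Rik, Arsb, which encodes a lysosomal sulfatase, and Bcl2l11, which encodes the pro-apoptotic protein Bim. The measure was the root mean square difference of log2(CPM + 0.5), each gene centred on its own mean, and came to 0.0824, 0.0847 and 0.0854. Bcl2l11 was at 15.6, 16.5 and 15.4 CPM in the tamoxifen libraries and at 27.6, 21.3 and 27.5 CPM in the untreated libraries. As in Siah2, untreated replicate 2 was the lowest of its group. The likeness describes these libraries and was not tested.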
